A study of Mus musculus with 6 samples.

Results

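The first-intron peaks are the regions in the table of all peaks whose annotation places the peak centre in the first intron of a RefSeq transcript, and there were 2670 of them among 22188 regions (12%). The rule uses position alone and no height. Chromatin immunoprecipitation with an anti-V5 antibody and sequencing (ChIP-seq) was performed in duplicate on murine embryonic fibroblasts (MEFs) of strain C57BL/6 that lack endogenous Klf3. All groups shared the Klf3-/- genotype and were rescued by MSCV retrovirus, the KLF3 group with Klf3-V5, the ΔDL group with a form whose contact motif for the corepressor CtBP is mutated, and the DBD group with the zinc fingers and a putative nuclear localization signal alone. Each construct was studied in a stable clonal line, so construct and clone cannot be told apart, and each immunoprecipitation record covers both replicates, with a record of its own for the inputs of that line. Nothing in the labels says that replicates came from separate cultures, so the spread between them may be technical.

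KLF3 is a Krüppel-like factor, a zinc finger protein that recognizes CACCC boxes and related GC-rich sequences and is best known as a transcriptional repressor that recruits CtBP. First introns begin just behind the promoter and often hold regulatory elements, both promoter-proximal ones and enhancers far inside the gene. The comparison of the constructs asks how far the domain outside the zinc fingers, and its contact with CtBP, affect where the protein is found.

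The members lay in 2019 genes, of which 1586 held 1 peak and 433 held more. For 93.2% of the members the host gene was also the nearest gene. The distance from the peak centre to the nearest transcription start site (TSS) had a median of 7.97 kb and ran from 103 bp to 584 kb. There were 833 members (31.2%) within 2 kb of a TSS and 1205 (45.1%) more than 10 kb away. At 192 members the peak lay upstream of the nearest TSS, which can be an alternative start of the same gene or the start of another gene. Of the members 1386 (51.9%) were listed for KLF3 alone, 547 (20.5%) for ΔDL alone and 45 (1.69%) for DBD alone. Another 273 (10.2%) were listed for KLF3 and ΔDL, 213 (7.98%) for all 3 constructs, 202 (7.57%) for ΔDL and DBD, and 4 for KLF3 and DBD. A construct is listed where the deposited list of peaks shared by its replicates holds the region. Of all 22188 regions 14115 were listed for KLF3, alone or with others, and 2334 for all 3 constructs. Among the 2670 members these numbers were 1876 and 213.

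The sequences at the peak centres show how differently the members are built. The strand shown is the plus strand of mm9, and capitals mark each KLF core (the word ACACCC, the word ACGCCC, the word CCACCC or the word CCGCCC, on either strand) and each AP-1 word (TGACTCA, on either strand). Each lies in intron 1 of the gene that names it, and windows touching an exon were passed over. The first set had some of the highest KLF3 heights and holds 1 to 5 KLF cores in 101 bases.
Plec, chr15:76034651-76034751: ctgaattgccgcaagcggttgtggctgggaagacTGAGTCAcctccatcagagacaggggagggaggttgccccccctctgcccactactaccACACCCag
Myo1c, chr11:75467535-75467635: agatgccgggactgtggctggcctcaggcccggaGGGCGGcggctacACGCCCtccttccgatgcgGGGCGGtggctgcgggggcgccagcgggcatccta
Ncam1, chr9:49604869-49604969: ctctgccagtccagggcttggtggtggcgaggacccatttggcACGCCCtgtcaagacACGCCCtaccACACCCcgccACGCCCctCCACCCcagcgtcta
The second set had some of the lowest ΔDL heights relative to KLF3. It was taken from members listed for KLF3 with a KLF3 height of 8 or more. Its windows have 61 to 80% G+C and hold 2 KLF cores each.
Elf4, chrX:45807447-45807547: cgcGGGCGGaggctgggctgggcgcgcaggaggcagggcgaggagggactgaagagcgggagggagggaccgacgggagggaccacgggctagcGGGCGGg
Mrpl14, chr17:45832210-45832310: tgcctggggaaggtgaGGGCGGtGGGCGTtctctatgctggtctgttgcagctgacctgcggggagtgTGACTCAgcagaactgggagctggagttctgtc
Zfp202, chr9:40000065-40000165: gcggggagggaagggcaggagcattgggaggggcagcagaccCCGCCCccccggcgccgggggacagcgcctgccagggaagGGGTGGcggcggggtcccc
The third set lies in non-coding transcripts. It had the highest ΔDL heights relative to KLF3 among members listed for ΔDL with a ΔDL height of 8 or more.
4930513D17Rik, chr5:39983236-39983336: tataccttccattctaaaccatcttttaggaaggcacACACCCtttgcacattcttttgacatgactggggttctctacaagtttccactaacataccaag
A930015D03Rik, chr17:36160716-36160816: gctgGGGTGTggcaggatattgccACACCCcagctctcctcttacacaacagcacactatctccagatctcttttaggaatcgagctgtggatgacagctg
The fourth set had the highest DBD heights of all members, with 1 KLF core in each window. The regions with the next highest DBD heights, at Trio, Lama2, Elf1 and Dmd, hold no KLF core in 400 bp.
Filip1l, chr16:57391638-57391738: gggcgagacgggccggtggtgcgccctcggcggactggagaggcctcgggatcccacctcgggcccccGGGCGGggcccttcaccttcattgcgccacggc
4932412D23Rik, chr16:42782351-42782451: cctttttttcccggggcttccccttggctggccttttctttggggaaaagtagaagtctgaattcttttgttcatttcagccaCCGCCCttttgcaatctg

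A KLF core was present in the central 100 bp of 47.3% of the members and in 18.2% of windows of equal length starting 400 bp to the side. Over all 22188 regions the shares were 40.2% and 16.9%. The AP-1 word was present in the central 200 bp of 16.7% of members and 3.6% of flanks, against 12.3% and 3.51% over all regions. The RUNX word TGTGGTT was found in 7.27% of members and 4.42% of flanks, and the TEAD word GGAATG in 15.2% and 10.1%. Over all regions these shares were 6.13% and 4.28% for RUNX and 13.5% and 10.4% for TEAD. Regions in later introns held them in 7.91% and 15%, close to the shares of the members. The ETS word CCGGAAG was found in 2.81% of members, 1.72% of their flanks and 16.9% of promoter regions. These are matches of letters on both strands and not measured sites of those factors.

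The number of first-intron peaks was counted in each replicate list. KLF3 replicate 1 held 3705 and replicate 2 held 3552, ΔDL replicates 1 and 2 held 1845 and 3989, and the DBD lists held 898 and 830. The means were 3628 ± 108 (SD, n = 2) for KLF3, 2917 ± 1516 (SD, n = 2) for ΔDL and 864 ± 48.1 (SD, n = 2) for DBD. The DBD lists were shorter than both KLF3 lists, with a difference of −2764 peaks (p = 0.333, two-sided exact permutation test). With 2 replicates against 2 this test cannot go below 0.333, so none of the comparisons of this kind can pass a threshold of 0.05. The ΔDL replicates lay on either side of the KLF3 replicates (difference −712, p = 1, exact permutation test). The steps of the scores put 1.77 M tags behind ΔDL replicate 1, the lowest total, and 5.46 to 18.1 M behind the others. These totals are lower than the mapped reads the study lists for the libraries and stand in other proportions to each other, and the cause was not tested. Without ΔDL replicate 1 ΔDL held 360 more first-intron peaks than KLF3.

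First introns took 13.8% and 14.9% of the KLF3 lists, 10.7% and 12.2% of the ΔDL lists and 9.81% and 10.2% of the DBD lists. The groups did not overlap for either mutant. The difference from KLF3 was −2.88 percentage points for ΔDL and −4.34 for DBD (p = 0.333 each, exact permutation test). The difference was smaller away from the TSS. When only first-intron peaks more than 1 kb from a TSS were counted, they took 10.7% and 9.81% of the KLF3 lists, 9.71% and 10% of the ΔDL lists and 9.38% and 9.55% of the DBD lists. The differences from KLF3 were then −0.398 for ΔDL (p = 0.667) and −0.8 for DBD (p = 0.333, both exact permutation tests).

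Within the first introns the position of the peaks also differed between the constructs. The share within 2 kb of the nearest TSS was 34.5% and 45.7% in the KLF3 lists, 17.7% and 28.5% in those of ΔDL, and 12.4% and 15.3% in those of DBD. The lowest KLF3 replicate was above the highest ΔDL replicate, and the lowest ΔDL replicate was above the highest DBD replicate. The median distance was 6.13 and 2.92 kb in the KLF3 lists, 13.2 and 8.58 kb in the ΔDL lists, and 17.9 and 14.7 kb in the DBD lists. Peaks on CpG islands made up 12.6% and 21.9% of the KLF3 first-intron peaks, 2.6% and 6.27% of those of ΔDL, and 0.334% and 0.602% of those of DBD. Each of these comparisons with KLF3 had p = 0.333 by the exact permutation test.

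**Figure D1:**
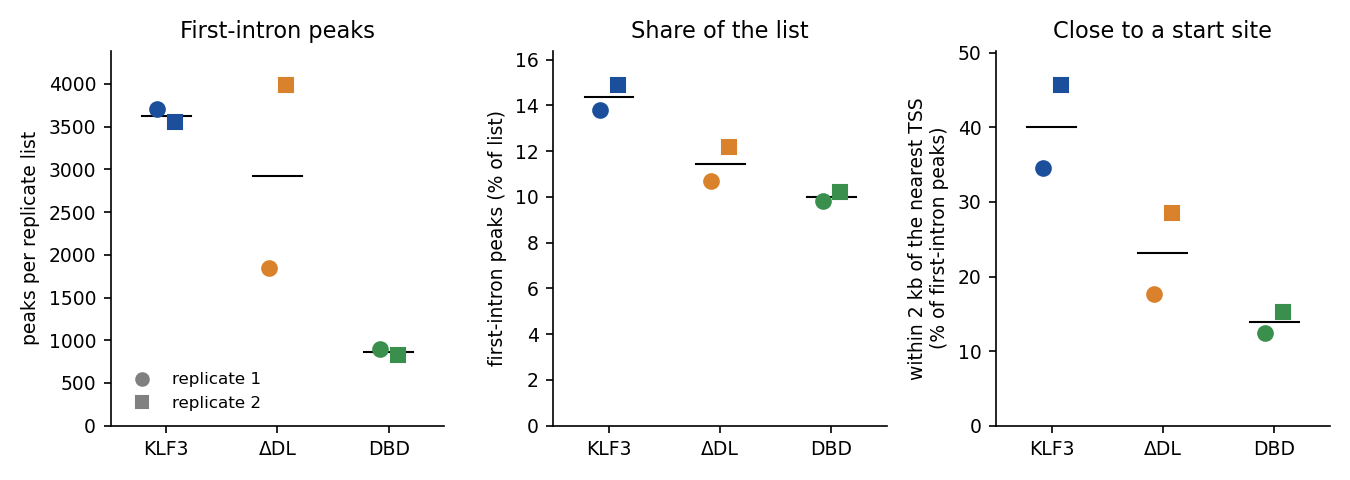
First-intron peaks in each replicate list. The panels give their number, their share of all peaks in the list and the share within 2 kb of the nearest TSS, with a point for each replicate and a bar at the mean. The ΔDL replicates are far apart in number (1845 and 3989), and in the other panels KLF3 is above ΔDL and ΔDL above DBD with no overlap.

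Set against the length of the introns, the lists differed in a similar way. First introns of protein-coding transcripts cover 304 Mb of mm9 and later introns 600 Mb, once exons and promoters are taken out and sequence that is both is counted as first intron. The regions listed for KLF3 had 6.16 peaks per Mb in first introns and 4.1 in later introns, a ratio of 1.5. The ratio was 0.81 for ΔDL and 0.709 for DBD. By replicate it was 1.33 and 1.74 in KLF3, 0.845 and 1.09 in ΔDL, and 0.727 and 0.774 in DBD. Where shared sequence was counted as later intron, the ratios over the listed regions were 2.37, 1.28 and 1.12, in the same order. The counts include peaks in non-coding transcripts, whose introns are not part of these lengths. With peaks in coding transcripts alone the ratios were 1.49, 0.783 and 0.701.

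Sequence at the first-intron peaks was compared with that of the other regions inside each of the 6 lists. In every list the first-intron peaks stood between promoter peaks and the other regions in G+C content and in KLF cores. Their mean G+C content was 3.84 ± 2.38 percentage points (SD over 6 lists) above that of peaks in later introns and 4.67 ± 2.24 above that of intergenic peaks, higher in 6 of 6 lists each. It was 14.5 points below that of promoter peaks, with differences from −19.4 to −10.1. Each had p = 0.0312, the smallest that a two-sided exact sign-flip permutation test over 6 lists can give, and 0.0469 after Benjamini-Hochberg adjustment over 9 comparisons. Over 1 kb from a TSS the difference from later introns was 1.88 points and that from intergenic peaks 2.71. With any list left out the test of 5 lists cannot pass 0.05. Replicates of a construct come from the same line, so the 6 lists are not fully independent.

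A KLF core was found at the centre of 42.4% and 60.8% of the KLF3 first-intron peaks, 19.4% and 36.3% of those of ΔDL, and 11.5% and 12.4% of those of DBD. In the flanks of the DBD peaks the core was present in 11.8% and 12.8%, close to the shares at the centres, although not near start sites. Up to 2 kb from a TSS the DBD centres held the core in 26.1% and 28.3% and their flanks in 18.9% and 14.2%. The difference from KLF3 was −23.7 points for ΔDL and −39.6 for DBD (p = 0.333 each, exact permutation test), with no overlap between groups. For ΔDL it was −14.6 without KLF3 replicate 2 and −15.3 without ΔDL replicate 1. With CACCC words alone it was −11.1 for ΔDL and −22.6 for DBD. Within the lists the share was 10.1 ± 5.98 points above that of later introns and 12.2 ± 6.73 above that of intergenic peaks, and it was 37.2 points below that of promoters, where the differences ran from −48.9 to −18.6 (adjusted p = 0.0469 each, exact permutation test). Over 1 kb from a TSS the first 2 differences were 5.58 and 7.63 points.

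The AP-1 word was found in 18.5% and 18.4% of the KLF3 first-intron peaks, 7.21% and 13.2% of those of ΔDL, and 2.78% and 3.86% of those of DBD. The flanks of the DBD peaks held it in 3.56% and 4.58%. First-intron and later-intron peaks differed by −1.35 ± 3.08 points, with 3 of 6 lists above 0 (adjusted p = 0.492, exact permutation test). Against promoter peaks the difference was 7.3 ± 6.95 points, higher in 5 of 6 lists (adjusted p = 0.121, exact permutation test).

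**Figure D2:**
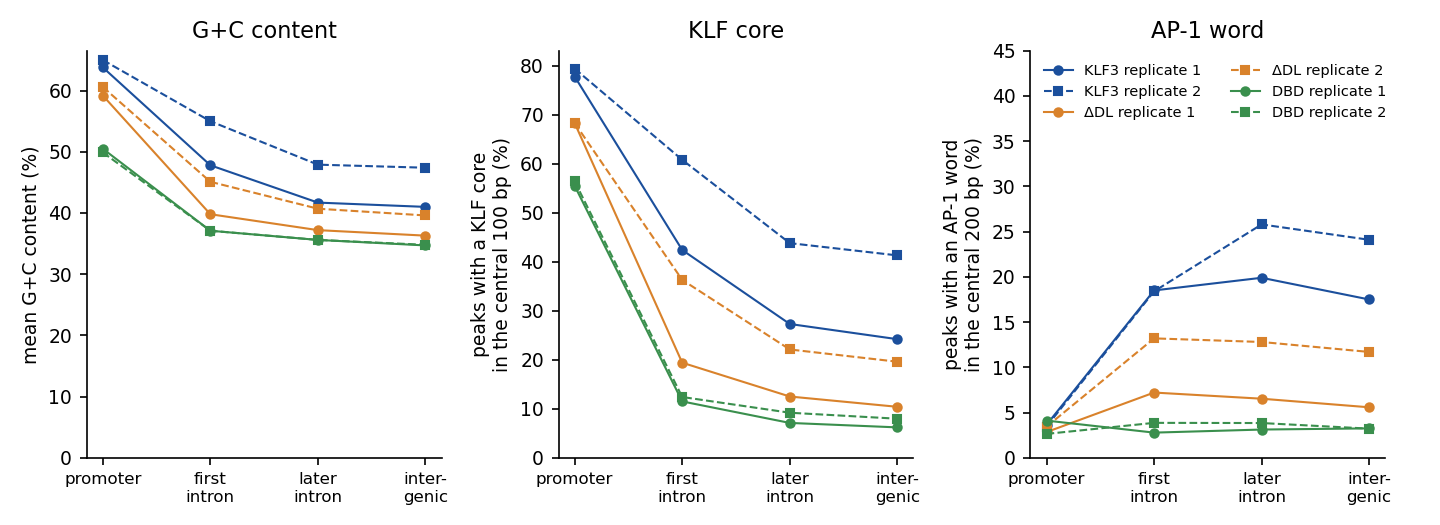
Mean G+C content, share of peaks with a KLF core in the central 100 bp and share with an AP-1 word in the central 200 bp, by region, with a line for each of the 6 replicate lists. First introns stand between promoters and later introns in the first 2 panels in every list, and the DBD lines for the AP-1 word stay between 2.64% and 4.11%.

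Heights are log2 values of normalized tags in 400 bp with both replicates combined, so they have no replicate error and no test was run on them. Over the 2670 members the median height was 7.57 for KLF3 (quartiles 6.71 and 8.27), 7.53 for ΔDL (7.03 and 8.04) and 5.97 for DBD (5.16 and 6.72). The median difference from KLF3 was −0.01 for ΔDL and −2.05 for DBD, against 0.42 and −1.45 over all 22188 regions. A ΔDL height at least 2-fold below that of KLF3 was found at 512 members (19.2%), where 14.9% of all regions were, and at least 2-fold higher at 623 (23.3%), where 28.9% of all regions were. DBD was at least 2-fold lower at 1663 members (62.3%, background 52.6%) and at least 2-fold higher at 58 (2.17%, background 3.27%). The scale decides the split for ΔDL. With heights set to the same median over the 2334 regions listed for all 3 constructs, which shifts ΔDL by −1.03 and DBD by −0.41, a lower ΔDL height was found at 1375 members (51.5%, background 42.3%) and a higher one at 11 (0.412%, background 0.464%). DBD was then lower at 1699 (63.6%, background 53.7%) and higher at 12 (0.449%, background 0.437%).

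The height difference followed the distance from the TSS. For ΔDL its median was −0.78 for the 566 members up to 1 kb from a TSS, −0.38 from 1 to 2 kb, 0.01 from 2 to 5 kb, 0.33 from 5 to 10 kb, 0.48 from 10 to 50 kb and 0.91 for the 371 members beyond 50 kb. For DBD the medians in the same order were −2.81, −2.39, −2.12, −1.56, −1.42 and 0.23. Members that only a mutant list brought in enter these medians, and their choice favours the mutant height. With members listed for KLF3 taken alone, the ΔDL medians were −0.88, −0.60, −0.45, −0.32, −0.27 and 0.15. The DBD medians were then −2.89, −2.64, −2.67, −2.38, −2.34 and −1.83, all below 0. This second choice favours the KLF3 height, so the size of the trend depends on the members counted. Over all members the KLF3 height moved most, with medians of 8.15 up to 1 kb and 6.77 beyond 50 kb. The ΔDL height was nearly level, at 7.42 and 7.53, and the DBD height was 5.41 and 6.56. Among members listed for KLF3, its median height fell less, from 8.22 to 7.55. There the ΔDL height was not level, at 7.36 near and 7.92 far, while DBD had 5.34 and 6.14. The ΔDL height was 2-fold or more below KLF3 at 39.9% of members up to 1 kb and at 7.28% beyond 50 kb. Later introns showed the same fall, with 26.8% of 41 regions up to 1 kb and 5.93% beyond 50 kb. Among intergenic regions beyond 50 kb the share was 4.22%. For ΔDL, later introns had the same order of medians, from −0.67 up to 1 kb (41 regions) to 0.92 beyond 50 kb, but were higher than first introns in each class between. Intergenic regions had ΔDL medians of −0.10 from 1 to 2 kb, 0.2 from 2 to 5 kb, 0.24 from 5 to 10 kb, 0.52 from 10 to 50 kb and 0.98 beyond 50 kb. They were above the first-intron medians in each of these classes but that from 5 to 10 kb.

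Distance moved together with base composition. The median G+C content was 60.6% up to 1 kb and 39.7% beyond 50 kb, and the share with a central KLF core was 79.3% and 19.7%. Spearman's rho over the members, which share their libraries, was 0.42 between distance and the ΔDL difference and −0.69 between G+C content and the ΔDL difference. For DBD these were 0.38 and −0.66, and between distance and G+C content it was −0.56. Among the 1876 members listed for KLF3, the regions were also compared within classes of G+C content. From 45 to 50% G+C the median ΔDL difference was −0.17 up to 2 kb and −0.28 farther away, from 50 to 55% it was −0.41 and −0.51, and from 55 to 60% it was −0.64 and −0.74. At 60% or more the values were −1.19 and −0.92, and below 45% they were 0.04 and 0.32. In each of these classes of G+C content the near and far medians lay inside each other's quartile ranges. The number of KLF cores in 400 bp gave a similar order. Members listed for KLF3 with no core had a median ΔDL difference of 0.62 and a DBD difference of −0.48, and those with 4 or more cores had −1.04 and −3.11.

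**Figure D3:**
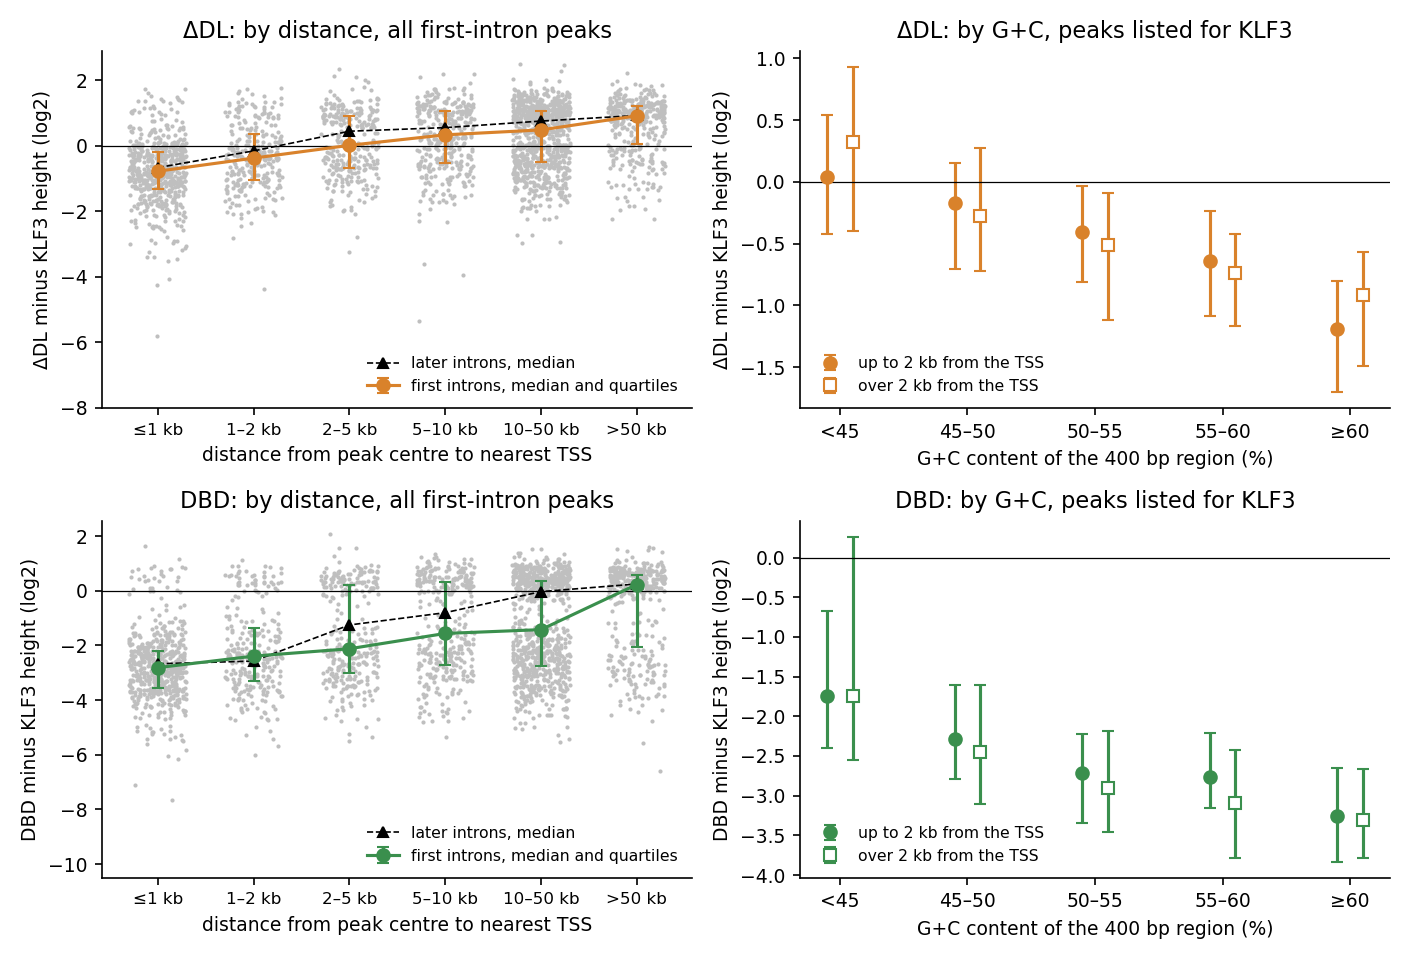
Height of ΔDL (upper panels) and DBD (lower panels) minus that of KLF3, on the log2 scale. On the left grey points are the 2670 first-intron peaks by distance class, coloured points with bars are medians and quartiles, and triangles are medians in later introns; the ΔDL median goes from −0.78 to 0.91. On the right the members listed for KLF3 are split by G+C content, with filled points up to 2 kb and open points over 2 kb from the TSS, and the medians go down with G+C content at both distances.

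The members fell into groups that differed in the tags behind the heights. At the 1386 members listed for KLF3 alone the median was 59.3 tags in the KLF3 libraries, 19 in the ΔDL libraries and 6.19 in the DBD libraries, before any scaling. At the 273 listed for KLF3 and ΔDL it was 84.4, 45.6 and 11.5. At the 213 listed for all 3 constructs it was 32.2, 34.1 and 28.4 tags, although the scaling puts 23.3 M, 11.8 M and 16 M tags behind the heights. At the 547 members listed for ΔDL alone it was 17.6, 18.5 and 14. Equal numbers of tags give a log2 difference in height of 0.98 for ΔDL and 0.54 for DBD from the scaling alone. The median differences at the members listed for all 3 were 1.02 and 0.37, and at those listed for ΔDL alone they were 1.04 and 0.27. The replicates showed the same evenness. The members listed for all 3 had a median of 12 and 18 tags in the KLF3 replicates, 12 and 21 in the ΔDL replicates, and 14 and 13 in the DBD replicates, in lists with 1.77 M to 18.1 M tags behind their scores. These groups were set by the calls themselves and are given as a description, and why the tag numbers were even was not tested.

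The sequences of these groups, which the calls did not use, differed as well. A central KLF core was present in 68.5% of the members listed for KLF3 alone, 61.5% of those listed for KLF3 and ΔDL, 17.6% of those listed for ΔDL alone, 11.7% of those listed for all 3 and 6.93% of those listed for ΔDL and DBD. The flanks held it in 22.7%, 19.4%, 11.3%, 13.1% and 10.9%. The AP-1 word was present in 23.9%, 25.6%, 5.85%, 2.82% and 2.48%. Median G+C content was 52.9%, 48.9%, 40.4%, 39.2% and 39.2%. Members listed for DBD, alone or with others, made up 3.71% of the members up to 1 kb from a TSS and 33.7% of those beyond 50 kb. Without these 464 members the ΔDL median went from −0.81 up to 1 kb to 0 from 10 to 50 kb and 0.58 beyond 50 kb, and the DBD median from −2.86 to −0.32.

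The replicate lists gave the same account for the 1876 first-intron peaks listed for KLF3. ΔDL replicates 1 and 2 called 28.1% and 67.5% of them and the DBD replicates 14% and 14.4%. The means were 47.8% ± 27.9 (SD, n = 2) and 14.2% ± 0.302 (SD, n = 2), and the difference was 33.6 points (p = 0.333, exact permutation test). Without ΔDL replicate 1 it was 53.4 points and without ΔDL replicate 2 it was 13.9. Of all KLF3 peaks in the table, the ΔDL replicates called 35.2% and 74.6% and the DBD replicates 19.6% and 19.5%.

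Found peaks were more common far from the TSS in each mutant replicate. Up to 1 kb from a TSS, 17.2% (95% Wilson interval 14.2 to 20.7) of the 516 KLF3 peaks were called in ΔDL replicate 1 and 55.4% (51.1 to 59.7) in ΔDL replicate 2. Beyond 50 kb these shares were 51.6% (44.5 to 58.6) and 83% (77 to 87.7) of 188 peaks. For DBD they were 3.1% (1.92 to 4.98) and 4.65% (3.15 to 6.83) up to 1 kb, and 38.3% (31.6 to 45.4) and 37.2% (30.6 to 44.3) beyond 50 kb. The difference between far and near was 34.3 and 27.6 points in the ΔDL replicates and 35.2 and 32.6 in the DBD replicates. The intervals cover counting error over peaks only. All KLF3 peaks of the table showed the same course. Of those up to 1 kb from a TSS the ΔDL replicates called 21.4% and 69.9% and the DBD replicates 2.41% and 3.67%. Beyond 50 kb the shares were 54.5% and 81.4%, and 43.2% and 41.9%.

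**Figure D4:**
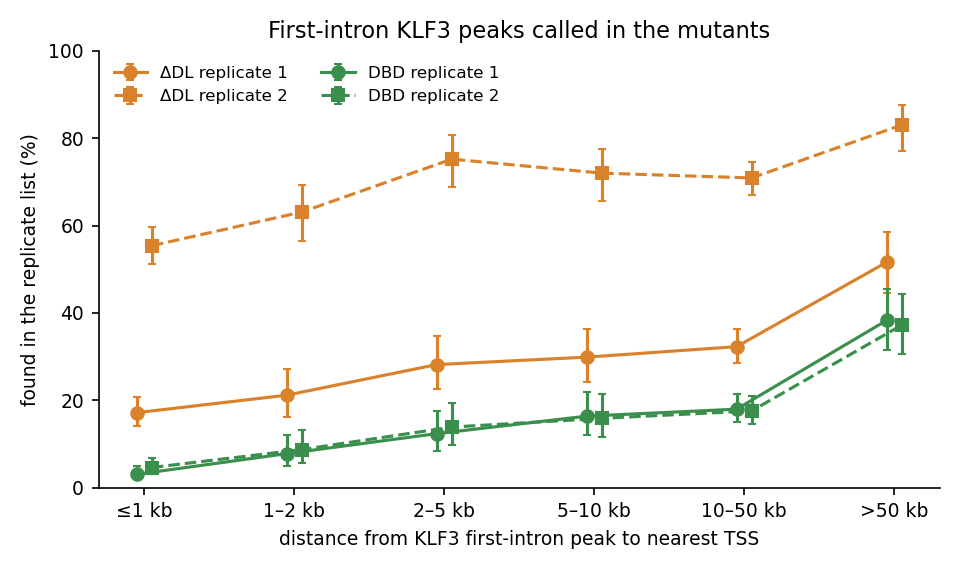
Share of the 1876 first-intron peaks listed for KLF3 that each mutant replicate list also held, by distance to the nearest TSS, with 95% Wilson intervals. In each of the 4 lists the share is lowest up to 1 kb and highest beyond 50 kb.

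Peak scores were also compared between single replicates. At the 519 members called in both KLF3 and both ΔDL lists, the log2 ratio of the ΔDL to the KLF3 score was higher beyond 10 kb than within 2 kb in each of the 4 pairings of replicates, by 0.36 to 1.71. For DBD there were 222 such members, 23 of them within 2 kb, and the difference was 0.06 to 0.28. These members had to be called in every list, which leaves out those that the mutants had lost. They include the 213 members listed for all 3 constructs, at a median of 25.1 kb from a TSS. With nearly even tags, the score ratios of those members depend on the worth of 1 tag in each list. That worth shifts the near and far ratios of a pairing alike, so the difference between them does not depend on it. The near and far members may differ in how many have such even tags, which was not tested.

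The 6 highest KLF3 heights were found at Plec, Actb, Myo1c, Ncam1, Ywhaz and Vim. The first was in intron 1 of Plec, which encodes the cytolinker plectin, on chr15:76034501-76034901. The KLF3 replicates had 60 and 162 tags in the peak and the ΔDL replicates 23 and 82, and no DBD replicate called it. Its height was 10.59 in KLF3, 10.67 in ΔDL and 6.34 in DBD. At Vim, which encodes the intermediate filament protein vimentin, the heights were 10.29, 10.24 and 7.26, and DBD replicate 1 called it with 12 tags. At Actb, which encodes cytoplasmic β-actin, they were 10.49, 9.29 and 5.22, with 44 and 144 tags in the KLF3 replicates and 13 and 29 in the ΔDL replicates. Myo1c, an unconventional myosin, had 10.45, 9.33 and 6.92, Ncam1, a cell adhesion molecule, had 10.36, 9.43 and 6.51, and Ywhaz, a 14-3-3 protein, had 10.32, 9.34 and 6.23. The Myo1c and Ywhaz peaks lie 1.93 and 1.54 kb upstream of the nearest start site. Both replicates of KLF3 and ΔDL called all 6 peaks. The ΔDL difference was 0.08 at Plec and −0.05 at Vim and ran from −1.2 to −0.93 at the other 4, while the DBD difference ran from −5.27 to −3.03 over the 6.

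Among members listed for KLF3 with a KLF3 height of 8 or more, 6 had the lowest ΔDL heights relative to KLF3. None of these 6 was listed for a mutant. At Elf4, an ETS family transcription factor gene, the KLF3 height was 8.62, with 10 and 45 tags, whereas ΔDL had 4.67 and DBD had 5.4. This region lies 8812 bp from the TSS on chrX:45807297-45807697, on a CpG island, and has 71.8% G+C. Mrpl14, which encodes a protein of the mitochondrial ribosome, had 8.34, 4.72 and 4.46, and the zinc finger gene Zfp202 had 8.18, 5 and 5.04. Pogk had 8.57, 5.16 and 2.96, Tbc1d9 had 8.11, 5.04 and 2.3, and Sema3f, which encodes a secreted semaphorin, had 8.59, 5.48 and 4.03. No ΔDL or DBD replicate called any of the 6. The ΔDL difference ran from −3.95 to −3.07, and 5 of the 6 regions are on CpG islands.

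The following 6 members were taken from those listed for ΔDL with a ΔDL height of 8 or more. They had the highest ΔDL heights relative to KLF3 and were not listed for KLF3, Gpr39 excepted. At the non-coding transcript 4930513D17Rik the height was 5.95 in KLF3, 8.22 in ΔDL and 5.88 in DBD, a ΔDL difference of 2.27. A930015D03Rik, whose nearest gene is H2-T24, had 6.5, 8.63 and 5.23, and Gm20110 had 5.95, 8.04 and 5.35. These 3 were called by both ΔDL replicates and by no replicate of the other constructs, with 6 and 18, 5 and 21, and 8 and 13 tags. Gpr39, which encodes a zinc-sensing receptor, had 7.89, 9.65 and 4.5 and was called by both replicates of KLF3 and ΔDL, with 7, 33, 16 and 45 tags. Arrdc1 and Gpr141 had ΔDL differences of 1.77 and 1.76, and the Gpr141 region lies in a LINE repeat. After scaling to the same median, the differences at the 6 members were 0.73 to 1.24.

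The highest DBD heights came with heights of similar size in the other constructs. At Trio, which encodes a guanine nucleotide exchange factor, the height was 8.34 in KLF3, 9.56 in ΔDL and 8.83 in DBD. Its tags were nearly even over the libraries, at 41 and 38 in KLF3, 40 and 50 in ΔDL, and 42 and 36 in DBD. In intron 1 of Elf1, another ETS gene, the tags were 35 and 35, 30 and 44, and 37 and 27. At the dystrophin gene Dmd they were 21 and 55, 30 and 48, and 29 and 30. These 3 regions have 27.2 to 41.6% G+C and no KLF core in 400 bp. The highest DBD height of all, 9.63, was at Filip1l, in a region annotated as a repeat of the large ribosomal RNA. The KLF3 and ΔDL heights there were 9.51 and 9.26, and the DBD replicates had 58 and 43 tags, while KLF3 and ΔDL called it in replicate 2 alone. At Lama2, which encodes a laminin chain, the heights were 7.85, 8.36 and 8.64, and DBD replicate 2 alone called it for DBD. The non-coding transcript 4932412D23Rik had 9.57, 10.06 and 8.84. Another of its peaks, 198 bp from the start site, had 9.28 in KLF3, 8.57 in ΔDL and 5.64 in DBD.

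**Figure D5:**
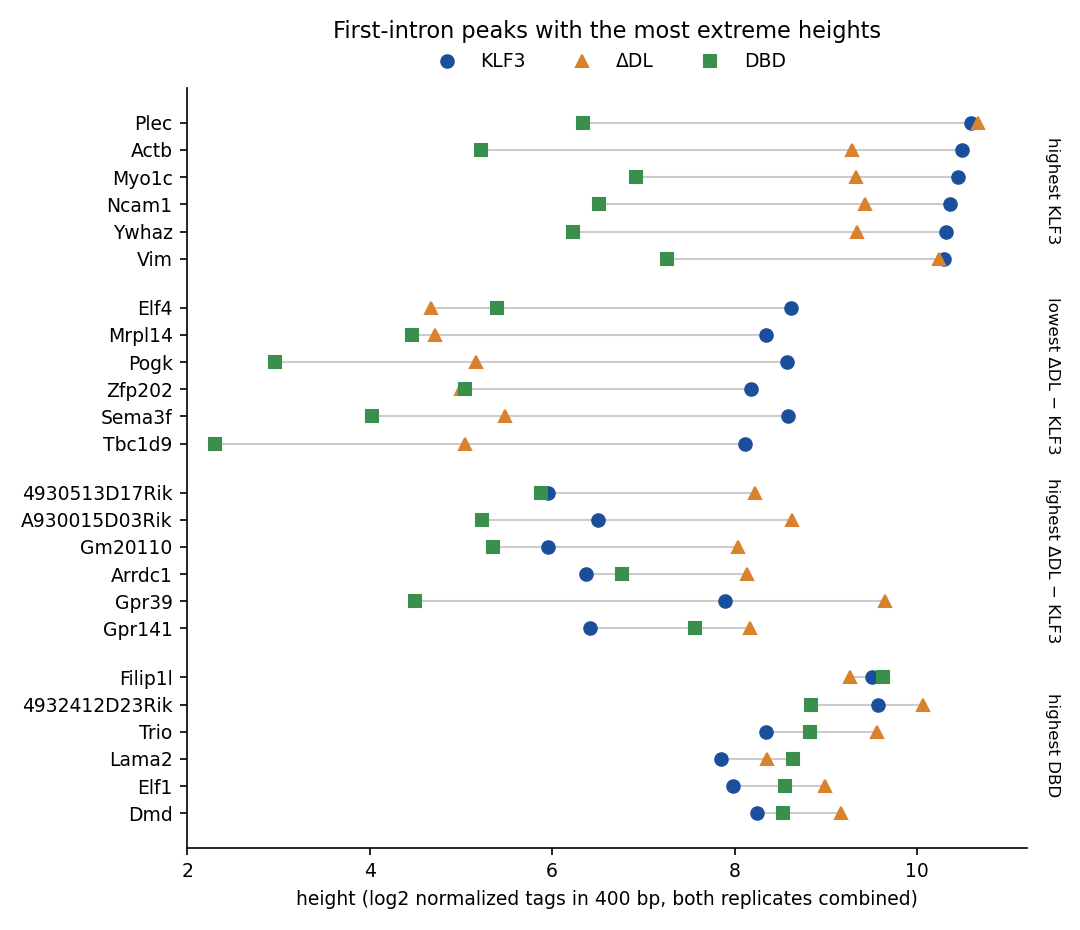
Heights on the log2 scale for groups of 6 first-intron peaks, named by host gene, with a point for each construct. The groups have the highest KLF3 height, the lowest and the highest ΔDL height relative to KLF3, and the highest DBD height. The second group was taken from members listed for KLF3 with KLF3 at 8 or more. The third was taken from members listed for ΔDL with ΔDL at 8 or more. DBD is far below the other constructs in the first group, both mutants are low in the second, and the constructs lie close together in the fourth.

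Several genes held rows of peaks in their first intron. Smad3, a signal transducer of TGF-β, held 5, none of them listed for a mutant, and its ΔDL differences ran from −2.17 to −1.15. Hspg2, which encodes the proteoglycan perlecan, also held 5, with ΔDL differences from −1.18 to −0.62. Cadm1, a cell adhesion molecule, had 5 with −1 to −0.18. The long first introns of Hs3st4, Magi2, Kcnip4 and Nkain2 held 6, 6, 5 and 5, and each of their ΔDL differences was above 0, between 0.76 and 1.73. All of these 22 peaks were listed for ΔDL, but only 4, 2, 2 and 2 of them for KLF3. The 5 peaks each of Smad3, Hspg2 and Cadm1 were all listed for KLF3. Equal numbers of tags give a ΔDL difference of 0.98 from the scaling alone. Fmnl2, a formin, had both kinds among its 6 peaks, with ΔDL differences from −2.25 to 1.49. Lmna, which encodes the nuclear lamins A and C, held 5 within 4.15 kb of a TSS, with KLF3 heights of 8.93 to 10.02 and DBD heights of 5.75 to 6.52. The Lmna peak 1916 bp from the TSS had a ΔDL height of 8.79 although neither ΔDL replicate called it, whereas the other 4 were called in both.

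Genes with a KLF3 peak in the promoter as well allow a comparison inside a gene. Of the 1876 first-intron peaks listed for KLF3, 634 lay in 500 genes that also had a KLF3 promoter peak. The median ΔDL difference was −0.93 at those promoters and −0.60 at the intron peaks, and it was above the promoter value at 406 of the 634 (64%). Up to 1 kb from a TSS the intron value was above the promoter value at 49.1% of 218 peaks, and from 10 to 50 kb at 79.3% of 179. For DBD the medians were −3.25 at the promoters and −2.76 at the intron peaks.

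Among the gene lists, the actomyosin, focal adhesion and lamin genes held the most members. Of the 30 genes of this list with a region in the table, 22 had a first-intron peak (73.3%), whereas 2019 of the 10807 genes named in the table did (18.7%). They include Actb, Vim, Vcl, Tln1, Pxn, Myh9 and Flna. Of their 42 peaks 39 were listed for KLF3, and their median KLF3 height was 8.86. ΔDL was at least 2-fold lower at 8 and higher at 1, with a median difference of −0.52, and DBD was at least 2-fold lower at 39. Over all first-intron peaks listed for KLF3, ΔDL was lower at 27.3% and higher at 8.21%, and DBD was lower at 84.4%. These are the shares against which the counts of each gene list are read, since nearly all of the lists' peaks were listed for KLF3. The TGF-β and BMP pathway had 14 peaks in 10 genes, all listed for KLF3. ΔDL was at least 2-fold lower at 8 of them and higher at 1, with a median difference of −1.15, and DBD was lower at 13. Of the 8 lower peaks 5 lie in the first intron of Smad3, with differences from −2.17 to −1.15, so they are not separate genes. At Ski, which encodes a corepressor of SMAD proteins, the heights were 9.83, 9.75 and 6.81, and at Tgfbr2, the type II TGF-β receptor gene, 8.98, 8.03 and 5.53. In every other gene list too, the share of genes with a first-intron peak was above 18.7%, from 21.7% to 52.6%. Whether these shares follow the length of the introns was not tested.

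Transcription factor genes with first-intron peaks included members of KLF3's own family. The KLF and Sp list had 11 peaks in 10 genes with a median ΔDL difference of −0.98, and ΔDL was at least 2-fold lower at 5 and higher at 1. Klf11 had a height of 9.9 in KLF3, 8.75 in ΔDL and 5.58 in DBD, Klf16 had 9.5, 7.88 and 4.94, and Klf13 had 9.38, 7.75 and 3.38. The RUNX, TCF and ETS list had 13 peaks in 10 genes and a median ΔDL difference of −0.54. Elk3, an ETS factor gene, had 8.92, 8.38 and 6.12, and Elk4 had 8.97, 7.19 and 5.08. The AP-1 and small Maf list had 6 peaks in 4 genes, and Atf7 had 9.66, 9.39 and 6.65. The Hippo pathway and TEAD list had 7 peaks in 6 genes, the highest at Jub with 9.42, 8.16 and 4.97. ΔDL was at least 2-fold lower at 1 of the AP-1 peaks and 2 of the Hippo peaks, and higher at 1 Hippo peak, in lists of too few peaks to set against the shares over all members.

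The genes of the CtBP complex and its partners had 10 first-intron peaks in 7 genes, with a median ΔDL difference of −0.44. At Sin3a, which encodes a scaffold of histone deacetylase complexes, the heights were 9.56, 9.36 and 5.89, and at Ctbp1 itself 8.63, 8.27 and 5.79. The matrix and integrin list had 17 peaks in 14 genes with a median of −0.55, and Loxl1, a lysyl oxidase gene, had 9.96, 9.2 and 6.09. The growth factor list had 12 peaks in 10 genes with −0.75, led by the collagen receptor gene Ddr1 with 9.08, 8.03 and 4.82. The adipogenesis and nuclear receptor list had 6 peaks in 5 genes with 0.24, and Srebf1, a regulator of lipid synthesis, had 8.1, 8.62 and 6.52. The DBD height was 2-fold or more below KLF3 at 39 of these 45 peaks and higher at none, and 40 of the 45 were listed for KLF3. Klf8, Lgals3, Mgst3 and Fez2 had members with ΔDL differences of 0.93, 0.15, −1.07 and −1.76 at their peaks nearest the TSS, and no DBD replicate called any of these 4.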

How the data were processed

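ChIP-seq peaks of V5-tagged KLF3, ΔDL and DBD in Klf3-/- MEFs were used, from 6 replicate lists, 3 merged lists and a table of all peaks. The submitters' processing notes name FastQC 0.10.1, Bowtie2 2.0.0, SAMtools 0.1.18, HOMER 4.1 and mm9. Peak calling by the authors compared every replicate with its input, and RefSeq gave the annotation. Each replicate list holds a deposited signal per peak, its tags scaled to a common total. The heights in the table are log2 values of tags in 400 bp, deposited for both replicates combined. The G+C content of the list peaks is a fraction computed by the authors, and the conservation value is a score deposited with it. The inputs enter only through the calling.

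Members were the table rows annotated to intron 1. They, the gene lists and the rules for named peaks were chosen with earlier results of these data known. Host genes were taken from the transcript in the annotation, 2549 through pairs in the files and 121 through the RefSeq gene table. The scores are whole multiples of the worth of 1 tag, which gave totals of 1.77 M to 18.1 M tags behind the lists, other than the mapped reads the study lists, with at least 4 to 13 tags per peak. The same interval differed by up to 0.12 on the log2 scale between a merged list and the table. Sequence was read from mm9, where the G+C content of 18371 of 18373 regions was within 0.1 points of the deposited value. Overlap meant at least 1 bp. Replicate lists were compared with two-sided exact permutation tests, and regions within lists with exact sign-flip tests over 6 lists. The named peaks were the 6 with the highest KLF3 height, the 6 with the lowest and the 6 with the highest ΔDL difference (with the higher construct, KLF3 and ΔDL in turn, at 8 or more on the log2 scale), the 6 with the highest DBD height, the genes with most peaks, up to 3 peaks per gene list by KLF3 height, and Klf8, Lgals3, Mgst3, Lmna and Fez2. The 6 with the lowest ΔDL difference were taken among members listed for KLF3. Those with the highest were taken among members listed for ΔDL. Further members of the clusters and the second peak in 4932412D23Rik were chosen after their values were seen. The tag groups and the peaks not listed for DBD were examined after seeing the data. Code was tested on simulated data with known answers and passed 9 of 9 checks. The tools were bedtools 2.31.1, pysam 0.24.0, scipy 1.17.1 and pandas 2.3.3 with numpy 2.4.6 under Python 3.11.15, and matplotlib 3.10.9 for figures. The authors' own comparison columns and ratios were not used. Some items are not reported here.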

Additional observations from a re-analysis of the deposited data

How the results depend on the processing

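Of the values recomputed under alternatives, 103 kept their direction and side of the threshold or moved little, 36 lost significance, each with a list left out, 19 moved, 4 turned direction and 1 gained significance. Comparisons of 2 lists against 2 cannot pass a threshold, so staying on one side of it says nothing for them. The lists of each construct are numbered, but nothing says that a number is shared between constructs. Pairing by number, a replicate block chosen after seeing the data, left the mean differences as they were, and 2 pairs cannot go below p = 0.5 in an exact sign-flip test. The pairs differed in direction for the number of ΔDL peaks alone (−1860 and 437). With ΔDL replicate 1 left out, the number of first-intron peaks was higher in ΔDL than in KLF3 by 360, and over the 4 replicates left out in turn the difference ran from −1784 to 360. Leaving out each list in turn took the sign-flip test to 5 lists, which cannot pass 0.05 (adjusted p 0.0804 to 0.0938). The G+C difference then ran from 3.2 to 4.32 points against later introns, from −15.4 to −13.6 against promoters and from 4.1 to 5.15 against intergenic peaks. The KLF core difference ran from 8.75 to 11.5, from −40.9 to −34.8 and from 10.7 to 13.7 points in the same order. The AP-1 differences from later introns and intergenic peaks, −1.35 and −0.229 points, turned to 0.605 and 1.73 for first-intron peaks over 1 kb from a TSS, and the second ran from −0.601 to 0.861 with a list left out. In the upper 50% of each list by score the AP-1 difference from promoters was 9.15 points (adjusted p = 0.0402, exact permutation test). The ΔDL height difference depends on the scale and on which members enter. Its median of −0.01 was −1.04 after scaling to the same median, −0.46 for members listed for KLF3, 0.38 over 1 kb from a TSS and −0.29 for members not listed for DBD. Members with ΔDL at least 2-fold lower numbered 1375 after scaling, 286 over 1 kb from a TSS and 81 at 4-fold. Those with ΔDL higher numbered 11 after scaling, 154 among members listed for KLF3, 341 among those not listed for DBD and 12 at 4-fold. The DBD median of −2.05 was −2.46, −2.60, −1.52 and −2.38 in the order given for ΔDL. Members with DBD higher numbered 12 after scaling, 3 among members listed for KLF3, 27 among those not listed for DBD and 1 at 4-fold. The restriction to members not listed for DBD was chosen after seeing the data. No fold or interval covers biological variation in the heights, since they combine both replicates, and ΔDL replicate 1, with 1.77 M tags behind its scores, limits what was called for ΔDL.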

Other observations

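The deposited conservation score averaged 0.213 and 0.237 at the first-intron peaks of the KLF3 replicates, 0.125 and 0.174 at those of ΔDL, and 0.0942 and 0.0951 at those of DBD. In the KLF3 and ΔDL lists these means were above those of later introns, which were 0.161 and 0.186 for KLF3 and 0.107 and 0.135 for ΔDL. In the DBD lists later introns had 0.0952 and 0.0947. Repeats of the LINE class held 3.64% and 2.25% of the KLF3 first-intron peaks, 6.45% and 4.54% of those of ΔDL, and 7.57% and 7.59% of those of DBD. Of the 2273 members whose region is also in a merged list, 338 (14.9%) lay on a CpG island, and the share was 51.1% up to 1 kb from a TSS and 0.656% beyond 50 kb.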
